A study of Mus musculus with 39 samples.

Results

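The transmitter genes of inhibitory neurons, Gad1, Gad2, Slc32a1 and Slc6a5, were followed across 39 RNA-seq libraries of mouse cerebellum and cerebellar granule cells. The genes were chosen by name, so all 4 of 24100 genes in the table are described, and all 4 passed the filter on low counts in each of the 12 comparisons. Gad1 and Gad2 encode the glutamic acid decarboxylases GAD67 and GAD65, which make GABA. Slc32a1 encodes VGAT, the carrier that loads GABA and glycine into synaptic vesicles. Slc6a5 encodes GlyT2, the transporter that returns glycine to glycinergic nerve endings.

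In the cerebellum GABA is made by Purkinje cells, the stellate and basket cells of the molecular layer, the Golgi and other interneurons of the granular layer, and some nuclear neurons. These cells descend from precursors that express Ptf1a, and many of the interneurons pass through a Pax2-positive stage after birth. Glycine is released mainly by Golgi cells and related interneurons and by part of the nuclear neurons, so Slc6a5 labels a smaller set of cells than the other genes. Granule cells are excitatory, descend from Atoh1-positive progenitors and receive inhibition from Golgi cells.

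The granule cell libraries came from 2 kinds of material. In translating ribosome affinity purification (TRAP), ribosomes carrying EGFP-tagged L10a are pulled down with their RNA. The tag was carried by Tg(Atoh1-Egfp-L10a) mice, from which granule cell progenitors were isolated first (Math1 TRAP, postnatal day P7, 4 libraries), and by Tg(NeuroD1-Egfp-L10a) mice, from which whole cerebellar lysate was used (Neurod1 TRAP, P7, P12 and P21, 5 libraries each). Input RNA gave 1 library at each of these ages. Cultures were started from P6 to P7 C57Bl/6J cerebella and sampled as fresh cells (DIV0), after 2 days in vitro with DMSO (DIV2), and after 5 days with DMSO (DIV5) or 100 nM UNC1999, an inhibitor of the histone H3K27 methyltransferases EZH2 and EZH1, with 2 libraries in each of these groups. Further DIV5 cultures came from P7 Ezh1(wt/wt);Atoh1-Cre mice (wt, 5 libraries) and from mice labelled Ezh1(cKO/cKO);Atoh1-Cre, given as Ezh1(fl/fl);Atoh1-Cre in the protocol (cKO, 4 libraries). Cre was therefore present in both of these groups and was driven by Atoh1, a gene of the granule lineage, and the strain of these mice is not given. The labels do not say whether libraries of a group came from separate animals or cultures, so p-values measure the spread between libraries, which may be technical.

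Total counts ran from 12084136 to 38546538 per library. Summed counts of 7 granule cell genes (Atoh1, Neurod1, Gabra6, Cbln1, Slc17a7, Zic1 and Pax6) lay between 2320 and 11900 CPM, the counts of a gene scaled to a common library total, over all libraries, and Atoh1 averaged 886 CPM in Math1 TRAP against 0.0226 CPM in Neurod1 TRAP at P21. The Ezh1 cultures fell into 2 sets by their own numbering. Libraries 1 and 2 of both genotypes stood apart from libraries 3 to 5, in the members as well as in some other markers, and the genotype values are given with and without each set. All libraries are bulk samples, in which fewer cells of a type and less RNA per cell cannot be told apart.

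Gad1 spans chr2:70561303-70602014, Gad2 chr2:22621015-22693877, Slc32a1 chr2:158607260-158615747 and Slc6a5 chr7:49906984-49963864 (RefSeq gene spans, mouse build GRCm38, plus strand). In the GENCODE annotation exons of Slc32a1 overlap the antisense gene Gm14205 over 697 bases. The labels do not state that counting used strand, so reads from Slc32a1 and Gm14205 cannot be told apart there. The windows from 250 bases before to 50 bases after a listed RefSeq start of each gene (build GRCm38.p6) are shown because Gad1, Gad2 and Slc32a1 had correlated levels across the groups (r 0.9495 to 0.977) and Slc6a5 less so (0.707 to 0.808 with the others). These starts lie inside the gene spans above and not at their first base. Capitals mark CpG pairs, the dinucleotide on which vertebrate CpG island promoters are defined. The windows are chr2:70561879-70562178 for Gad1, chr2:22622077-22622376 for Gad2, chr2:158610508-158610807 for Slc32a1 and chr7:49910049-49910348 for the first of 2 listed starts of Slc6a5, all on the plus strand.
Gad1: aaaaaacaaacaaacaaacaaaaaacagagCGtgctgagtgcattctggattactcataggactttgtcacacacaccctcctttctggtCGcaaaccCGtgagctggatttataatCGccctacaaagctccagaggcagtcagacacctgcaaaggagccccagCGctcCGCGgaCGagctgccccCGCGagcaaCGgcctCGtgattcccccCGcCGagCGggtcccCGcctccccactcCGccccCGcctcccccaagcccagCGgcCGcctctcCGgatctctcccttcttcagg
Gad2: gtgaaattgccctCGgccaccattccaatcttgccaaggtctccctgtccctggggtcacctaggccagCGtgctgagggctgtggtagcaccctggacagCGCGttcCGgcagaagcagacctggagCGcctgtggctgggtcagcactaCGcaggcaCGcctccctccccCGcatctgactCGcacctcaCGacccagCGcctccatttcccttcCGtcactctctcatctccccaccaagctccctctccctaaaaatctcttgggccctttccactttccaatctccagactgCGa
Slc32a1: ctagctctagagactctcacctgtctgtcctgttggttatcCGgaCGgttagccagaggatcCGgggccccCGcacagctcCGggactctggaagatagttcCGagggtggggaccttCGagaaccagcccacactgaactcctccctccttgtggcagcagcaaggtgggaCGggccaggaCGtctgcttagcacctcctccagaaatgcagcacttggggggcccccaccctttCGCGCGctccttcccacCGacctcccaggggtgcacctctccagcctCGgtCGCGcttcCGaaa
Slc6a5: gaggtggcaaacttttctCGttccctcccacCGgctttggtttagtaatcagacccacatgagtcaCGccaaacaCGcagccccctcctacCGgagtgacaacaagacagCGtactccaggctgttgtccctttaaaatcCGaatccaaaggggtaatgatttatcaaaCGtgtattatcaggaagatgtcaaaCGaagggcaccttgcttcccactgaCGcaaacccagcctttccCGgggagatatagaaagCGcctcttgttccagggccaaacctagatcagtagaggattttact

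The Gad1 window held 21 CpG pairs, Slc32a1 17, Gad2 14 and Slc6a5 12, and the second Slc6a5 start had 7. The median of 32851 RefSeq promoter windows of the same length was 7. GC content was 60.0% for Gad1, 61.3% for Gad2, 63.3% for Slc32a1 and 49.7% for the first Slc6a5 window. The E-box letters CAGCTG and CATATG, searched on both strands, were in none of these windows and were in 16.3% and 3.91% of all promoter windows. The TATAAA letters, also searched on both strands, were found once, on the minus strand of the Gad1 window (TTTATA as printed), and occur in 13.6% of all windows. These are descriptions of the letters in the windows only.

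Per kilobase of the longest annotated mRNA, input at P21 held 80.3 CPM per kb of Gad1, 34.5 of Slc32a1, 14.2 of Gad2 and 0.980 of Slc6a5. Gad1 was therefore the most abundant of the 4 transcripts in that library on the length-scaled level, and Slc6a5 the least. The lengths are those of the annotation, and the transcripts in use were not measured.

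**Figure D1:**
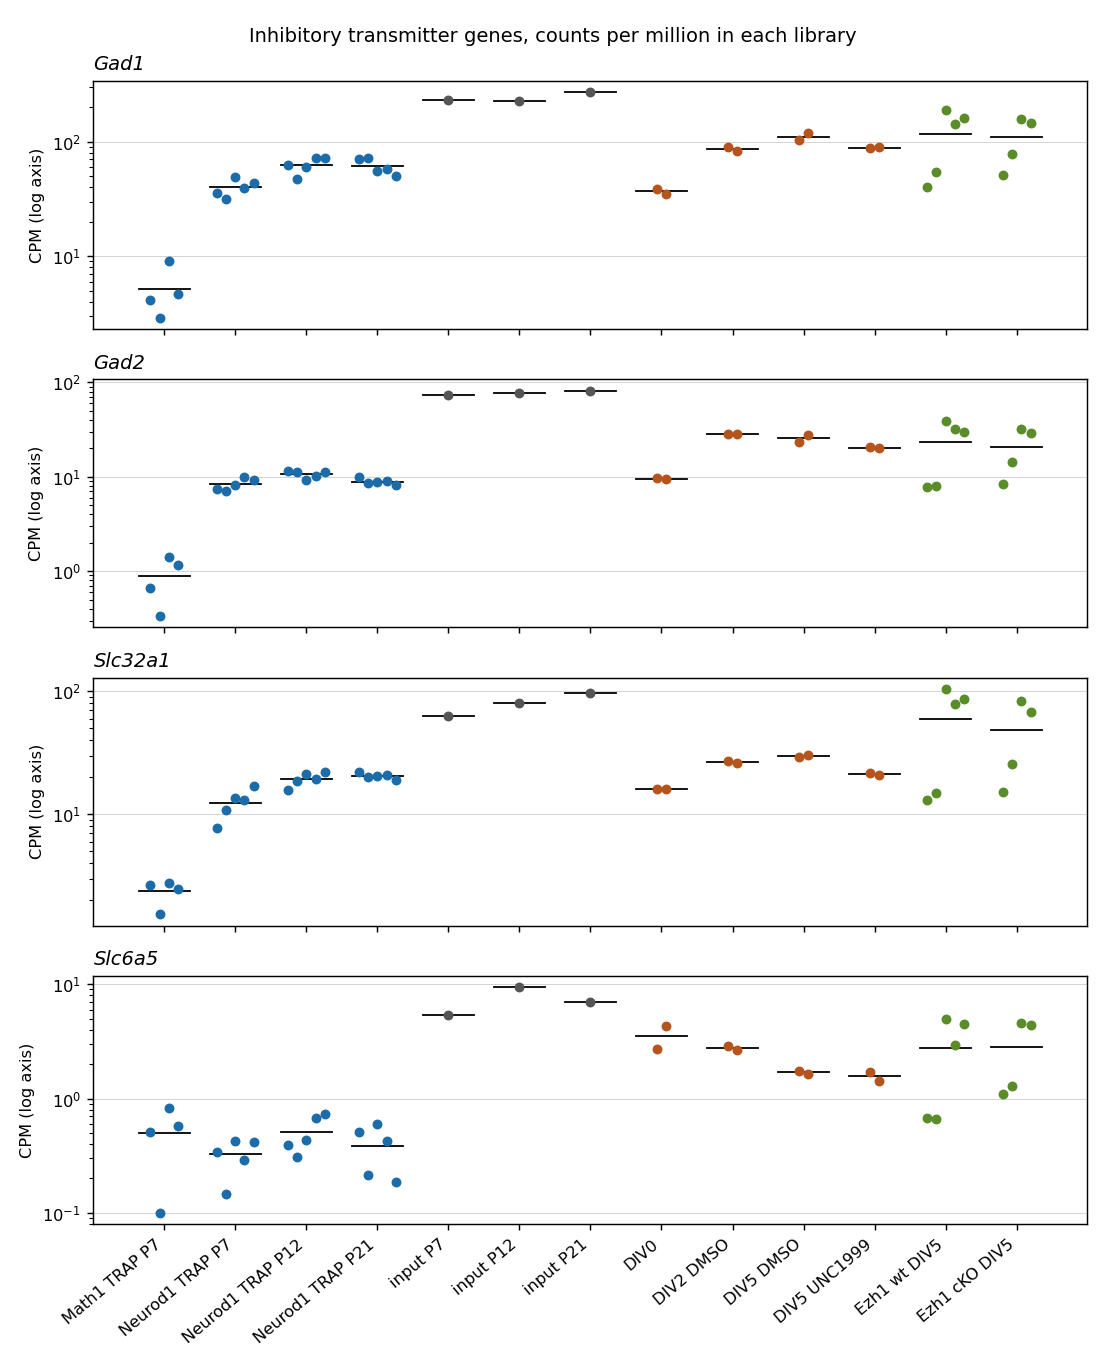
Levels in CPM of Gad1, Gad2, Slc32a1 and Slc6a5 (one panel each, log axis) in each of the 39 libraries; points are libraries in the order of their numbers and lines are group means. Inputs lie above all other libraries for Gad1, Gad2 and Slc6a5, for Slc32a1 an Ezh1 wt library reaches 104.2 CPM, Math1 TRAP lies lowest for Gad1, Gad2 and Slc32a1, and the Ezh1 cultures split into a low pair and a high set in both genotypes.

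Gad1, the decarboxylase that makes most GABA in cell bodies, stood at 230.5, 227.2 and 269.5 CPM in the inputs of P7, P12 and P21. Among the other groups it averaged 117 CPM in Ezh1 wt, 110 in DIV5 DMSO, 109 in Ezh1 cKO, 88.7 in DIV5 UNC1999 and 86.4 in DIV2, and each of these neighbours overlapped the next. The TRAP groups of Neurod1 followed with 62.9 CPM at P12, 61.4 at P21 and 40.03 at P7, then DIV0 with 36.9 and Math1 TRAP with 5.22. The P12 and P21 libraries overlapped, P21 did not overlap P7, and DIV0 lay within the P7 range, while Math1 TRAP lay below every other library.

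Gad2, the synaptic form of the enzyme, was at 74.1, 76.3 and 81.7 CPM in the inputs. It then ran from 28.4 CPM in DIV2 through 25.6 in DIV5 DMSO, 23.3 in Ezh1 wt, 20.9 in Ezh1 cKO and 20.3 in DIV5 UNC1999 to 10.7, 8.88 and 8.34 in Neurod1 TRAP at P12, P21 and P7, with DIV0 at 9.58. DIV2 lay just above DIV5 DMSO without overlap, DIV5 DMSO and the 3 groups after it overlapped their neighbours, and so did the Neurod1 TRAP groups and DIV0 among themselves. Math1 TRAP held 0.889 CPM, below every other library. Slc32a1 was at 62.7, 80.7 and 96.4 CPM in the inputs, 59.4 in Ezh1 wt, 48.0 in Ezh1 cKO, 29.9 in DIV5 DMSO, 26.7 in DIV2, 21.4 in DIV5 UNC1999, 15.9 in DIV0 and 2.36 in Math1 TRAP. Its Neurod1 TRAP means were 12.4 at P7, 19.4 at P12 and 20.5 at P21. The Ezh1 wt range held all 3 inputs, DIV5 DMSO, DIV2 and DIV5 UNC1999 did not overlap each other, and UNC1999, P21, P12, DIV0 and P7 each overlapped the next.

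Slc6a5 had another order. It was at 5.41, 9.38 and 6.92 CPM in the inputs, and next came DIV0 with 3.52, above Ezh1 cKO with 2.84, DIV2 with 2.79 and Ezh1 wt with 2.74. DIV5 DMSO held 1.69 and DIV5 UNC1999 1.56 CPM. All 4 TRAP groups lay below 1 CPM and overlapped each other: 0.509 in Neurod1 at P12, 0.503 in Math1, 0.388 in Neurod1 at P21 and 0.324 in Neurod1 at P7. These values rest on 3 to 26 counts per TRAP library, so their order is not resolved.

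The comparison of Neurod1 TRAP with input asks how far the pulldown leaves out RNA of other cerebellar cells. All 4 genes were lower in TRAP than in input, where 41.2% of 15479 genes tested were called lower and 36.6% higher (77.8% in either direction). The TRAP level was 17.4%, 27.7% and 22.8% of input for Gad1 at P7, P12 and P21, and 11.3%, 14.0% and 10.9% for Gad2. It was 19.9%, 24.1% and 21.3% for Slc32a1, and 5.99%, 5.43% and 5.61% for Slc6a5. In no age did the highest TRAP library reach the input, which stood 3.17-fold above it for Gad1 at P12 and 11.55-fold above it for Slc6a5 at P21.

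With age as a factor, Slc6a5 fell by 3.73 ± 0.21 on the log2 scale (SE from the fit; 13.2-fold lower, edgeR adjusted p 2.07e-11). Gad2 fell by 2.67 ± 0.08 (6.38-fold lower, edgeR adjusted p 8.17e-15). Slc32a1 fell by 1.82 ± 0.12 (3.53-fold lower, edgeR adjusted p 1.93e-10) and Gad1 by 1.80 ± 0.13 (3.48-fold lower, edgeR adjusted p 3.69e-10). Each age had 1 input library, whose exact 95% counting interval was 224.9 to 236.2 CPM for Gad1 at P7 and 4.58 to 6.35 CPM for Slc6a5, which covers counting error only. With scaling by library size alone the share of called genes that were higher was 25.6%, against 47.1% with TMM, and the median of all genes moved to -0.46 from -0.07; the 4 genes stayed called as lower.

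Lists of other inhibitory genes were lower as well in TRAP. All 5 molecular layer interneuron genes were called lower, with a median log2 fold change of -1.71, led by Pvalb, a calcium buffer of basket, stellate and Purkinje cells (-2.81 ± 0.14), the receptor kinase gene Kit (-2.37 ± 0.15) and Sorcs3 (-1.71 ± 0.13). Of 8 genes of Golgi and Purkinje layer interneurons 7 were lower and 1 did not pass (median -1.28), including Lgi2 (-1.83 ± 0.12), the glutamate receptor gene Grm2 (-1.10 ± 0.14) and Htr2a (-2.43 ± 0.32). Of 9 transcription factors of inhibitory lineages 8 were lower, among them Tfap2b (-2.79 ± 0.11), Tfap2a (-2.06 ± 0.12) and Pax2 (-1.76 ± 0.16). The uptake and breakdown list had 6 of 6 lower, including the GABA transporter gene Slc6a13 (-2.87 ± 0.19) and the glycine transporter gene Slc6a9 (-2.14 ± 0.15). The postsynaptic list differed: of 5 tested, 3 were higher, 1 lower and 1 did not pass (median 0.33), the higher ones including the glycine receptor gene Glra2 (0.90 ± 0.10) and the scaffold gene Gphn (0.47 ± 0.07). All 8 Purkinje cell genes were lower (median -2.22), and so were all astrocyte, oligodendrocyte, microglia and vascular genes listed, while 6 of 7 granule cell genes were higher.

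At P7 the Neurod1 pulldown was set against the Math1 pulldown. Gad1 stood at 4.16, 2.90, 9.12 and 4.72 CPM in the 4 Math1 libraries and at 35.5, 31.9, 49.1, 39.8 and 43.9 CPM in the 5 Neurod1 libraries. The groups did not overlap, and Gad1 was 7.998-fold higher in Neurod1 (log2 2.9996 ± 0.22, edgeR adjusted p 2.09e-10). Gad2 stood at 0.661, 0.334, 1.40 and 1.16 CPM against 7.46, 7.003, 8.17, 9.86 and 9.23, 10.46-fold higher (log2 3.39 ± 0.22, edgeR adjusted p 1.41e-11). Slc32a1 stood at 2.68, 1.54, 2.74 and 2.48 CPM against 7.80, 10.8, 13.5, 13.2 and 16.9, 5.32-fold higher (log2 2.41 ± 0.19, edgeR adjusted p 3.12e-10). Again neither pair of groups overlapped, and the share of all genes that separate in this way was not computed.

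Slc6a5 did not follow these genes. It was at 0.505, 0.1001, 0.8288 and 0.579 CPM in Math1 and at 0.343, 0.147, 0.424, 0.290 and 0.418 CPM in Neurod1, with a log2 fold change of -0.50 ± 0.48 (95% interval -1.50 to 0.50, edgeR adjusted p 0.361). In this comparison 36.5% of 14759 genes were called higher in Neurod1 and 35.8% lower, so the 3 calls are read against a background of 72.4% called. Math1 libraries 3 and 4 both held more Gad1 than libraries 1 and 2. Against libraries 1 and 2 alone, Gad1 was higher by 3.47 and Gad2 by 4.05, and against libraries 3 and 4 alone by 2.53 and 2.72 (log2), with all of these still called. The log2 fold change of Slc6a5 was 0.11 against libraries 1 and 2 and -1.10 against libraries 3 and 4, neither called. The 2 pulldowns also started from different material, isolated progenitors and whole lysate, and line and material cannot be told apart.

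Markers of Purkinje cells moved in the same direction as the 3 genes. All 8 were higher in Neurod1 (median 3.58), with Car8 at 4.08 ± 0.20, Pcp4 at 2.98 ± 0.17 and Calb1 at 3.51 ± 0.21 on the log2 scale, and the summed level of the list was 53.9 to 83.0 CPM in Math1 and 439 to 542 CPM in Neurod1. None of the 8 was at 0 in all libraries of either group. Of 5 molecular layer interneuron genes 2 were higher, Nxph1 (2.44 ± 0.25) and Pvalb (1.84 ± 0.26), and 3 lower, including Ptprk (-0.46 ± 0.11). Of 7 tested Golgi and Purkinje layer interneuron genes 6 were higher, such as the gap junction gene Gjd2 (3.76 ± 0.18) and Klhl1 (3.47 ± 0.36), and 1, Grm2, was lower (-1.70 ± 0.13). Of the 9 lineage factors 8 were higher and 1 lower, the higher ones including Pax2 at 2.11 ± 0.21 and Lhx5 at 1.78 ± 0.19. The summed level of these factors did not rise with them. It was 205 to 254 CPM in Math1 and 179 to 231 CPM in Neurod1, with overlap. All 5 postsynaptic genes tested were higher (median 0.85) and all 5 vascular genes lower (median -2.09). The part of other cells in the difference was not tested.

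Within the Neurod1 pulldown the ages follow granule cells from the first postnatal week to near maturity. Gad1 held 63.0, 47.6, 60.7, 71.7 and 71.5 CPM at P12 and 71.2, 72.0, 55.8, 58.2 and 49.97 CPM at P21, with the P7 libraries as above. From P7 to P12 it was 1.60-fold higher (log2 0.68 ± 0.17, edgeR adjusted p 0.00144), with 1 of the P12 libraries inside the P7 range. Slc32a1 held 15.7, 18.7, 21.2, 19.4 and 22.0 CPM at P12 and rose by the same measure (log2 0.68 ± 0.15, edgeR adjusted p 3.21e-04), with P12 library 1 inside the P7 range. Gad2 held 11.5, 11.3, 9.23, 10.1 and 11.4 CPM at P12, with library 3 inside the P7 range, and rose by 0.38 ± 0.15 (edgeR adjusted p 0.0283). This call was lost when any of 6 libraries was left out (P7 libraries 1, 2 and 3, and P12 libraries 1, 2 and 5), where the change was 0.32 to 0.37. For Slc6a5 the log2 fold change was 0.70 ± 0.41 (edgeR adjusted p 0.139), and it was called in a fit of these 2 ages alone (0.74, edgeR adjusted p 0.0482). Between these ages 31.5% of 14759 genes were called higher and 36.7% lower (68.2% in all), against which the 3 members are read.

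From P12 to P21 none of the 4 genes passed the test (32.4% of genes were called higher and 32.7% lower, 65.1% in all). The log2 fold changes were 0.12 for Gad1 (95% interval -0.23 to 0.47), -0.11 for Gad2 (-0.42 to 0.19), 0.23 for Slc32a1 (-0.07 to 0.53) and -0.28 for Slc6a5 (-1.10 to 0.54). With library size alone the median of all genes moved to -0.15, the share of called genes that were higher was 35.7% rather than 49.8%, and the Gad1 value became -0.04. A fit of these 2 ages alone called Slc32a1 higher (log2 0.22, edgeR adjusted p 0.0303). Over the whole span from P7 to P21 Slc32a1 was 1.87-fold higher (log2 0.91 ± 0.15, edgeR adjusted p 6.44e-06) and Gad1 1.73-fold higher (log2 0.79 ± 0.17, edgeR adjusted p 2.28e-04), where 38.9% of genes were called higher and 42.5% lower (81.5% in all). Slc32a1 held 21.9, 20.2, 20.3, 20.95 and 19.1 CPM at P21, all above the P7 libraries. Gad2 (0.26 ± 0.15, edgeR adjusted p 0.106) and Slc6a5 (0.42 ± 0.42, edgeR adjusted p 0.366) did not pass. The Gad2 value was 0.33 with DESeq2 (adjusted p 0.00622) and 0.30 in a fit of the 2 ages alone (edgeR adjusted p 0.0125), both called. With library size alone the median of all genes over this span moved to -0.22 from -0.05, and the same 2 genes were called. These age comparisons share libraries.

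Genes of the inhibitory lineage went the other way. Of the 9 transcription factors 8 were already lower at P12 than at P7 (median -1.71) and 1, Tfap2b, did not pass (-0.20 ± 0.15). All 9 transcription factors were lower at P21 than at P7 (median -2.82), including Lhx1 (-1.92 ± 0.09) and Pax2 (-2.82 ± 0.19), and Ptf1a and Neurog1 had no counts in any P21 library. Of 5 molecular layer interneuron genes 3 were higher, including Pvalb (3.35 ± 0.20) and Sorcs3 (2.15 ± 0.17), and 2 lower, including Ptprk (-2.16 ± 0.11). Of 7 tested Golgi and Purkinje layer genes 2 were higher, including Lgi2 (1.76 ± 0.16), and 4 lower, including Aldh1a3 (-2.15 ± 0.23) and Chrm2 (-2.37 ± 0.29). Of 6 uptake and breakdown genes 3 were higher, including Slc6a9 (2.16 ± 0.18), and 2 lower, including the GABA transaminase gene Abat (-1.20 ± 0.10). The postsynaptic gene Glrb (2.27 ± 0.13) was higher and Glra2 lower (-2.03 ± 0.15), with 3 of 5 tested higher and 2 lower. Most Purkinje cell genes moved with Gad1 and Slc32a1: of 8, 6 were higher at P21, 1 was lower and 1 did not pass (median 1.42). The higher ones were led by Ppp1r17 (2.97 ± 0.15), Car8 (1.98 ± 0.15) and Itpr1 (2.25 ± 0.17), and the summed level of the list was 439 to 542 CPM at P7 and 759 to 943 CPM at P21. Oligodendrocyte genes did so as well, with 5 of 6 higher and 1 lower at P21 (median 2.16) and summed levels of 255 to 325 CPM at P7 and 348 to 539 CPM at P21. Astrocyte and Bergmann glia genes had 2 of 6 higher and 3 lower (median -0.24). They summed to 324 to 512 CPM at P7 and 187 to 219 CPM at P21. Vascular genes had 0 of 5 higher and 2 lower (median -0.32), and microglia genes 2 of 5 higher and 0 lower (median 0.32). From P7 to P12 the counts were 7 of 8 higher for Purkinje genes (median 1.13) and 5 of 6 higher and 1 lower for oligodendrocyte genes (median 1.92). Their part was not tested.

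In culture the questions are how the inhibitory transcripts of fresh cells compare with the pulldown and how their levels change over 5 days. Fresh cells at DIV0 were first set against Math1 TRAP. All 4 genes were higher at DIV0, where 33.4% of 14804 genes were called higher and 33.3% lower (66.6% in either direction). Gad1 held 38.8 and 35.0 CPM at DIV0 and was 6.28-fold higher (log2 2.65 ± 0.32, edgeR adjusted p 1.30e-04). Gad2 held 9.78 and 9.38 CPM and was 10.0-fold higher (log2 3.33 ± 0.41, edgeR adjusted p 1.35e-04). Slc32a1 held 16.0 and 15.9 CPM and was 5.90-fold higher (log2 2.56 ± 0.23, edgeR adjusted p 2.54e-05). Slc6a5 held 2.70 and 4.34 CPM and was 6.50-fold higher (log2 2.70 ± 0.56, edgeR adjusted p 0.00258).

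Every DIV0 library exceeded every Math1 library for all 4 genes, and the share of all genes that separate likewise was not computed. The comparison sets ribosome-bound RNA against total poly(A) RNA, so cells and method cannot be told apart. With library size alone 62.2% of called genes were higher, against 50.1% with TMM, and the median of all genes moved to 0.24 from 0.03. Of 9 lineage factors 8 were higher and 1 lower at DIV0 (median 2.11), the higher ones including Tfap2a (3.27 ± 0.19), Tfap2b (2.84 ± 0.20) and Pax2 (2.51 ± 0.20). Purkinje genes mostly went the other way: of 6 tested, 4 were lower, including Pcp4 (-2.55 ± 0.20) and Calb1 (-3.29 ± 0.62), and 1, Itpr1, was higher (1.24 ± 0.14). Their summed level was 66.1 to 68.7 CPM at DIV0 and 53.9 to 83.0 CPM in Math1, and Skor2, a transcription cofactor of Purkinje cells, had no counts at DIV0. All 5 vascular genes, 5 of 6 oligodendrocyte genes and 4 of 5 microglia genes were higher at DIV0.

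From DIV0 to DIV2 the GABA genes rose. Gad1 held 90.7 and 82.2 CPM at DIV2 and was 2.40-fold higher (log2 1.27 ± 0.08, edgeR adjusted p 1.62e-09). Gad2 held 28.2 and 28.6 CPM and was 3.03-fold higher (log2 1.60 ± 0.10, edgeR adjusted p 2.24e-09). Slc32a1 held 27.3 and 26.0 CPM and was 1.71-fold higher (log2 0.77 ± 0.09, edgeR adjusted p 1.25e-06). None of these overlapped DIV0, and the share of all genes that separate likewise was not computed. Of 15978 genes 36.4% were called higher (71.3% in either direction). Slc6a5 held 2.90 and 2.68 CPM, overlapping DIV0, with a log2 fold change of -0.34 ± 0.23 (edgeR adjusted p 0.211). Without DIV0 library 1 it was -0.68 (edgeR adjusted p 0.0229), and without DIV0 library 2 it was 0.03, so the value depends on which of these 2 libraries is used. The p of such a fit compares an arm of 1 library, assumed to vary like the other groups.

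From DIV2 to DIV5 the genes parted by small amounts. Gad1 held 102.5 and 118.2 CPM at DIV5 and was 1.16-fold higher (log2 0.21 ± 0.07, edgeR adjusted p 0.0180). Gad2 held 23.6 and 27.6 CPM and was 1.22-fold lower (log2 -0.29 ± 0.09, edgeR adjusted p 0.0105). Slc6a5 held 1.75 and 1.63 CPM and was 1.83-fold lower (log2 -0.87 ± 0.27, edgeR adjusted p 0.0103). Slc32a1 held 29.4 and 30.4 CPM and did not pass (0.02, 95% interval -0.15 to 0.19). Of all genes 31.1% were called higher and 35.7% lower (66.7% in either direction). The calls were not stable: DESeq2 called 1 of the 4 genes, and so did the fits without DIV2 library 1 and without DIV5 library 2. With library size alone 57.4% of called genes were higher, against 46.6% with TMM, and Gad2 was no longer called (-0.14, edgeR adjusted p 0.186).

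Over the 5 days from DIV0 all 4 genes were called. Gad1 was 2.78-fold higher (log2 1.47 ± 0.08, edgeR adjusted p 1.96e-10), Gad2 2.48-fold higher (1.31 ± 0.10, edgeR adjusted p 1.69e-08) and Slc32a1 1.73-fold higher (0.79 ± 0.08, edgeR adjusted p 6.73e-07). Slc6a5 was 2.31-fold lower (-1.21 ± 0.26, edgeR adjusted p 5.88e-04). Background shares were 40.2% of genes called higher and 38.2% lower (78.3% in either direction). The median of all genes was 0.04 with TMM and 0.15 with library size alone. The DIV0 libraries also serve the comparison with DIV2.

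The lineage factors fell while the enzymes rose. All 9 were lower at DIV5 than at DIV0 (median -3.59), including Lhx1 (-3.59 ± 0.08), Prdm13 (-5.27 ± 0.21) and Tfap2b (-1.997 ± 0.09), and Ptf1a and Neurog1 had no counts in DIV5 DMSO. Of 5 molecular layer interneuron genes 2 were higher, Sorcs3 (1.84 ± 0.20) and Ptprk (0.33 ± 0.05), and 1, Nxph1, lower (-1.52 ± 0.25). Of 5 tested Golgi and Purkinje layer genes Lgi2 (1.82 ± 0.15) and Chrm2 (1.86 ± 0.36) were higher and Grm2 lower (-4.98 ± 0.36). Of 6 postsynaptic genes 4 were higher, 1 was lower and 1 did not pass, the higher ones including Glra2 (3.48 ± 0.12), Glrb (1.52 ± 0.07) and Nlgn2 (0.84 ± 0.05). Markers of other cells differed as well. Purkinje genes had 5 of 6 tested higher and 1 lower (median 3.06), with Pcp4 at 4.17 ± 0.09, Calb1 at 4.67 ± 0.21 and Slc1a6 at 6.09 ± 0.40 among the higher ones. Their summed level was 66.1 to 68.7 CPM at DIV0 against 234 to 237 CPM at DIV5. All 5 microglia genes were higher, and 4 of 5 vascular genes were lower and 1 higher. Astrocyte genes had 5 of 6 higher and 1 lower (median 1.60), with summed levels of 540 to 545 CPM at DIV0 and 2150 to 2220 CPM at DIV5. Skor2 stayed without counts in all DIV0, DIV2 and DIV5 libraries, and the part of these cells was not tested.

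**Figure D2:**
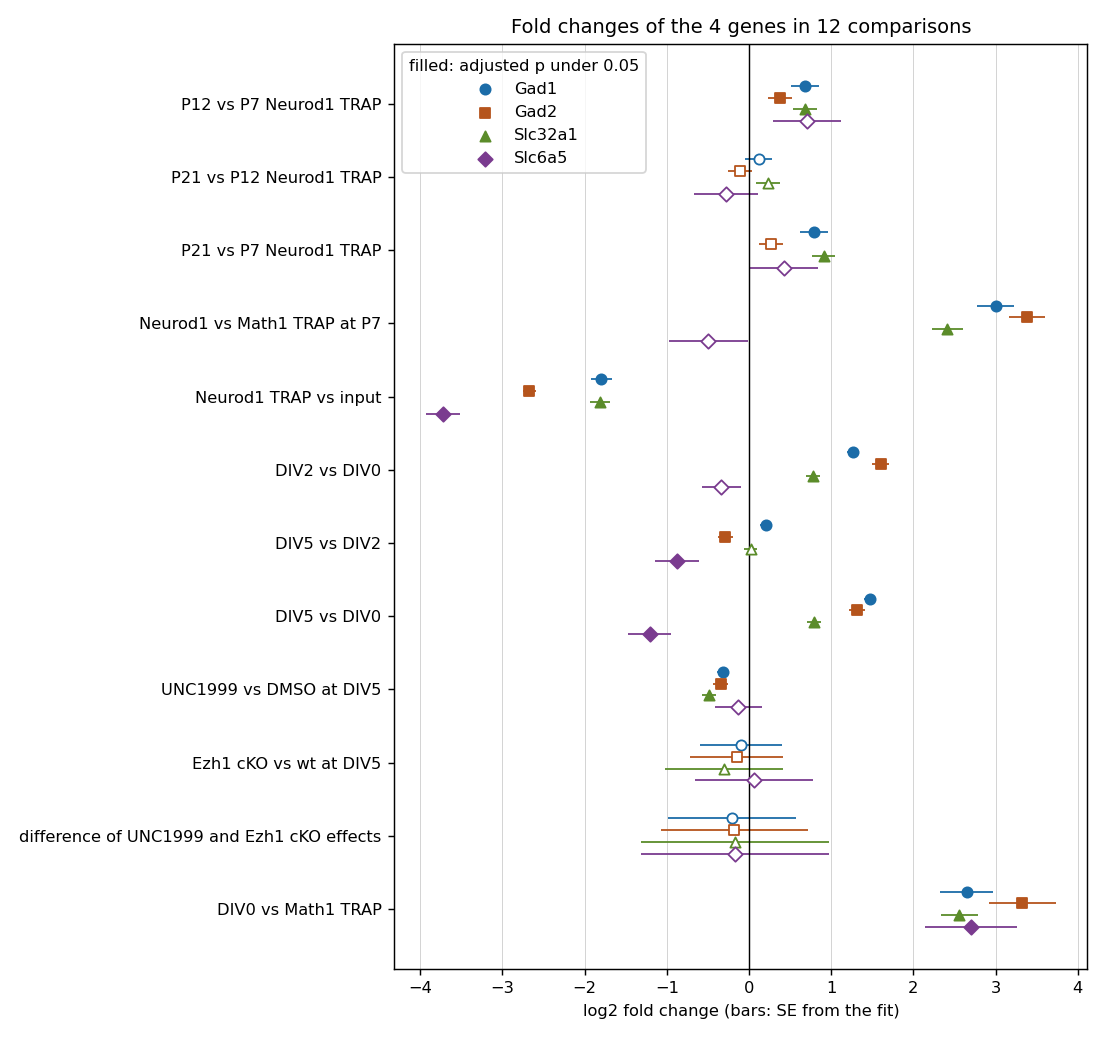
Log2 fold changes (horizontal axis) of Gad1, Gad2, Slc32a1 and Slc6a5 in the 12 comparisons (vertical axis), with the SE from the fit as bars and filled symbols where the edgeR adjusted p was under 0.05. Slc6a5 lies apart from the other genes in Neurod1 against Math1 TRAP and in DIV5 against DIV0, and lies lowest against input.

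At DIV5 the 3 GABA genes were lower with UNC1999, by small amounts. Slc32a1 held 29.4 and 30.4 CPM with DMSO and 21.9 and 20.9 CPM with UNC1999, and was 1.40-fold lower (log2 -0.49 ± 0.08, edgeR adjusted p 0.00142). Gad2 held 23.6 and 27.6 against 20.5 and 20.1 CPM and was 1.27-fold lower (log2 -0.34 ± 0.09, edgeR adjusted p 0.0225). Gad1 held 102.5 and 118.2 against 87.4 and 90.1 CPM and was 1.25-fold lower (log2 -0.32 ± 0.07, edgeR adjusted p 0.0102). The treated and control libraries did not overlap for these 3 genes, and the share of all genes that separate in this way was not computed. Of 15978 genes 5.53% were called lower and 6.36% higher. Slc6a5 held 1.75 and 1.63 against 1.70 and 1.43 CPM, with a log2 fold change of -0.13 (95% interval -0.75 to 0.49, edgeR adjusted p 0.824). Leaving out 1 of the 4 libraries leaves an arm of 1 library, which the fit assumes to vary like the other groups. Under that assumption Slc32a1 was called in each such fit. Gad1 and Gad2 lost theirs without DMSO library 2 (-0.23 and -0.24), without UNC1999 library 1 (-0.30 and -0.36) and without UNC1999 library 2 (-0.33 and -0.32), and DESeq2 did not call Gad2 (adjusted p 0.107). A fit of these 2 groups alone put 43.8% of called genes higher, against 53.5% in the joint fit.

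The lists of other inhibitory genes each held called and uncalled genes under UNC1999, where 11.9% of all genes were called in either direction. Of the 5 molecular layer interneuron genes Ptprk (-0.53 ± 0.05) and Kit (-0.21 ± 0.06) were lower and 3 did not pass (median -0.21, against 0.001 over all genes). Of 5 tested Golgi and Purkinje layer genes Lgi2 (-1.11 ± 0.13) and Chrm2 (-1.72 ± 0.33) were lower and 3 did not pass. Among the 9 lineage factors Lhx1 was higher (0.48 ± 0.09) and Tfap2a lower (-0.43 ± 0.09). Of the 6 uptake and breakdown genes 2 were higher, 1 was lower and 3 did not pass (median 0.09); the 2 higher ones were Aldh5a1 (0.28 ± 0.08) and Abat (0.19 ± 0.06), which break down GABA. Of the 6 postsynaptic genes 2 were higher, including Gphn (0.31 ± 0.06), and 4 did not pass. No Purkinje gene of 6 tested passed, with summed levels of 234 to 237 CPM with DMSO and 218 to 227 CPM with UNC1999. Astrocyte genes moved with the GABA genes, 5 of 6 lower (median -0.30, summed level 2150 to 2220 against 1780 to 1970 CPM), and 4 of 7 granule cell genes were higher. The part of cell makeup was not tested.

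The Ezh1 cultures ask what loss of 1 of the methyltransferases shows beside the inhibitor. The targeted gene was read first. Ezh1 itself held 40.8, 42.1, 49.9, 47.5 and 41.0 CPM in wt and 34.8, 36.5, 35.6 and 33.8 CPM in cKO. The groups did not overlap, with a log2 fold change of -0.34 ± 0.09 (edgeR adjusted p 1). Counts over the whole gene do not show which exons remained, so they do not settle how far the allele was recombined.

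Gad1 held 39.9, 54.3, 188.7, 142.7 and 159.4 CPM in wt and 51.6, 78.6, 158.4 and 146.8 CPM in cKO. Slc32a1 held 13.01, 14.98, 104.2, 79.3 and 85.7 CPM in wt and 15.1, 25.4, 83.5 and 67.8 CPM in cKO. In both genotypes libraries 1 and 2 were low and the others high. Gad2 ran from 7.75 to 14.3 CPM in the 4 libraries numbered 1 and 2, and from 29.0 to 38.7 CPM in the other 5. Slc6a5 ran from 0.657 to 1.28 CPM and from 2.92 to 4.96 CPM in the same sets, so none of the 4 genes overlapped between them. The sets were drawn after seeing the data, and the share of all genes that separate between them was not computed.

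No genotype difference could be resolved, in a fit without the sets or with them. The log2 fold changes of cKO against wt were -0.10 ± 0.50 for Gad1 (95% interval -1.22 to 1.02), -0.15 ± 0.57 for Gad2 (-1.43 to 1.13), -0.30 ± 0.72 for Slc32a1 (-1.93 to 1.32) and 0.06 ± 0.71 for Slc6a5 (-1.55 to 1.68), all with an edgeR adjusted p of 1. No gene of 14461 was called by edgeR (0%), 169 had an unadjusted p under 0.05, and DESeq2 called 1. Among libraries 1 and 2 alone the values were 0.43 for Gad1, 0.49 for Gad2, 0.50 for Slc32a1 and 0.79 for Slc6a5 (edgeR adjusted p 0.724 for each). Among the later libraries alone they were -0.09, -0.13 and -0.24, and Slc6a5 was at 0.14. With the replicate number as a block, and wt library 5 left out, Gad1 was at 0.14 (edgeR adjusted p 0.654). Gad2 was at 0.08 and Slc32a1 at 0.06 in that fit, so the sign of these uncalled values turned.

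Some other lists split by set as well, in opposite directions. The lineage factors summed to 45.1 to 71.5 CPM in libraries 1 and 2 and 129 to 165 CPM in the others, and granule cell genes to 2320 to 2730 against 3560 to 4410 CPM. Purkinje genes were higher in libraries 1 and 2, at 201 to 266 against 68.0 to 79.1 CPM, which came from Pcp4 (117 to 196 against 1.90 to 3.08 CPM) while Calb1 ranged alike (13.4 to 19.1 against 10.4 to 17.0 CPM). Oligodendrocyte genes summed to 816 to 1190 against 163 to 230 CPM and microglia genes to 238 to 328 against 26.7 to 50.2 CPM. Not every list split. Uptake and breakdown genes overlapped between the sets (271 to 544 against 312 to 430 CPM). So did Golgi and Purkinje layer interneuron genes (17.1 to 28.6 against 22.9 to 44.8 CPM) and astrocyte genes (6380 to 12600 against 2780 to 6830 CPM). The labels do not say what separates the sets, and their part in the genotype values is given by the fits above.

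**Figure D3:**
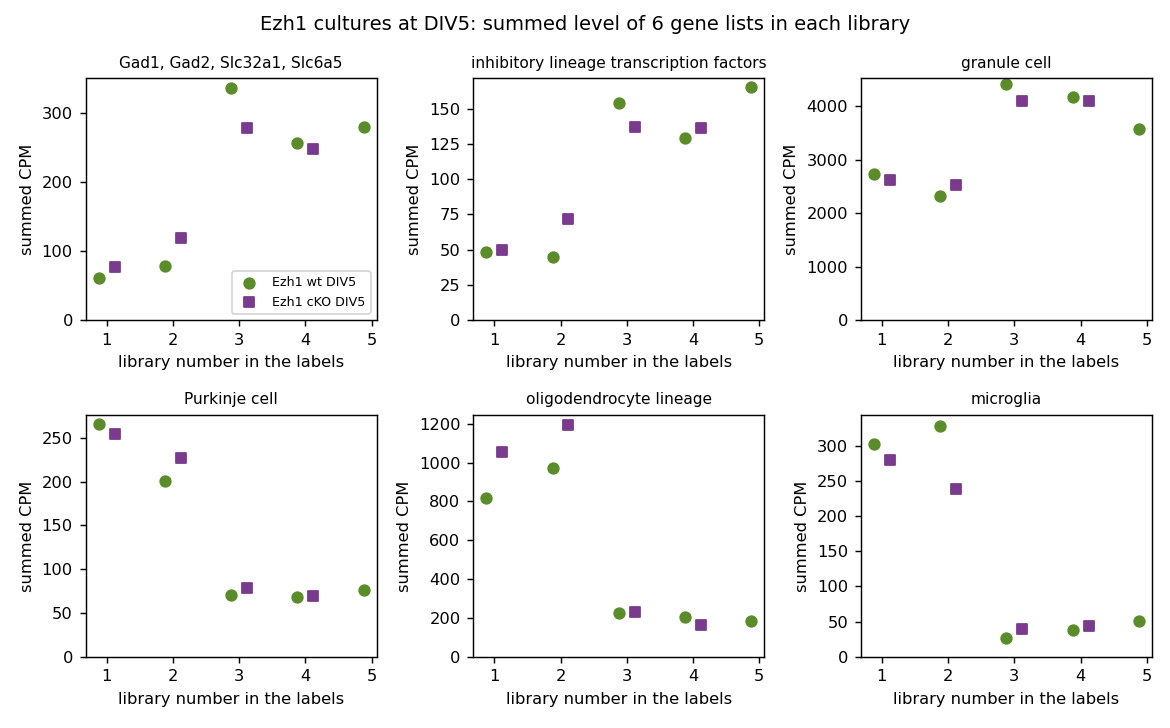
Summed CPM (vertical axis, from 0) of 6 gene lists in each Ezh1 culture by library number (horizontal axis), circles for wt and squares for cKO. The 4 inhibitory transmitter genes sum to 61.4 to 120 CPM in libraries 1 and 2 and 248 to 336 CPM in libraries 3 to 5, and microglia and oligodendrocyte genes lie the other way.

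The difference between the UNC1999 and cKO effects was tested directly in a fit of 13 libraries. The log2 differences were -0.21 for Gad1 (95% interval -1.93 to 1.51), -0.18 for Gad2, -0.17 for Slc32a1 and -0.17 for Slc6a5, with SEs of 0.78 to 1.14 and edgeR adjusted p of 1. With the set of Ezh1 libraries as a term they were -0.44 ± 0.25, -0.45 ± 0.27, -0.54 ± 0.29 and -0.44 ± 0.36 (edgeR adjusted p 0.753 to 0.799). With the replicate number as a block, and Ezh1 wt library 5 left out, they were -0.47 ± 0.20, -0.43 ± 0.27, -0.55 ± 0.26 and -0.55 ± 0.38 (edgeR adjusted p 0.496 to 0.696). These values were over 1.5 times those of the joint fit, and no member was called in either. No gene of 15453 was called (0%), 247 had an unadjusted p under 0.05, and DESeq2 called 7. These values do not show that the treatment and the genotype act alike.

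Ratios between the genes within a library do not depend on how libraries are scaled. Slc6a5 was at 12.1, 3.45, 9.09 and 12.3 counts per 100 Gad1 counts in Math1 TRAP (9.24 ± 4.13, SD, n = 4) and at 0.794 ± 0.209 in Neurod1 TRAP at P7 (SD, n = 5). These groups did not overlap (mean log2 ratio lower by 3.44 in Neurod1, two-sided exact permutation p 0.0159, the smallest this design allows). After Benjamini-Hochberg adjustment over 15 such tests the p was 0.119 and 0 of 15 passed. A single ratio at the smallest p of its design cannot pass over 15 tests, so this outcome does not show that the ratios were equal. The Math1 ratios rest on 3 to 13 Slc6a5 counts and 57 to 143 Gad1 counts per library. Between these pulldowns Gad1 was 7.998-fold higher in Neurod1, while the Slc6a5 level did not pass. In the inputs the Slc6a5 ratio was 2.35, 4.13 and 2.57 at P7, P12 and P21, above every Neurod1 TRAP library, which reached 1.07 at most.

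In culture the ratio was 9.69 ± 3.87 at DIV0, 3.23 ± 0.0442 at DIV2, 1.55 ± 0.230 at DIV5 with DMSO and 1.76 ± 0.252 with UNC1999 (SD, n = 2 each). No test was run on these, since 2 libraries a group cannot pass an exact test. Gad2 per 100 Gad1 counts was 32.1, 33.6 and 30.3 in the inputs and 21.1 ± 2.92, 17.4 ± 3.84 and 14.7 ± 1.76 in Neurod1 TRAP at P7, P12 and P21 (SD, n = 5 each). P21 did not overlap P7 (mean log2 ratio lower by 0.52, two-sided exact permutation p 0.00794, the smallest this design allows, adjusted 0.119). It did not pass, and a single ratio at that p could not pass the adjustment. Slc32a1 per 100 Gad1 counts was 50.02 ± 14.4 in Math1 TRAP (SD, n = 4) and 31.0 ± 6.37 in Neurod1 TRAP at P7 (SD, n = 5), which overlapped (exact permutation p 0.0635, adjusted 0.318). In the Ezh1 cultures this ratio was 44.9 ± 13.7 in wt (SD, n = 5) and 40.1 ± 11.2 in cKO (SD, n = 4). It split by set without overlap, at 27.6 to 32.6 in libraries 1 and 2 of both genotypes and at 46.2 to 55.6 in the others. In libraries 1 and 2 it was 32.6 and 27.6 in wt against 29.3 and 32.3 in cKO. In the others it was 53.7 to 55.6 in wt against 52.7 and 46.2 in cKO.

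**Figure D4:**
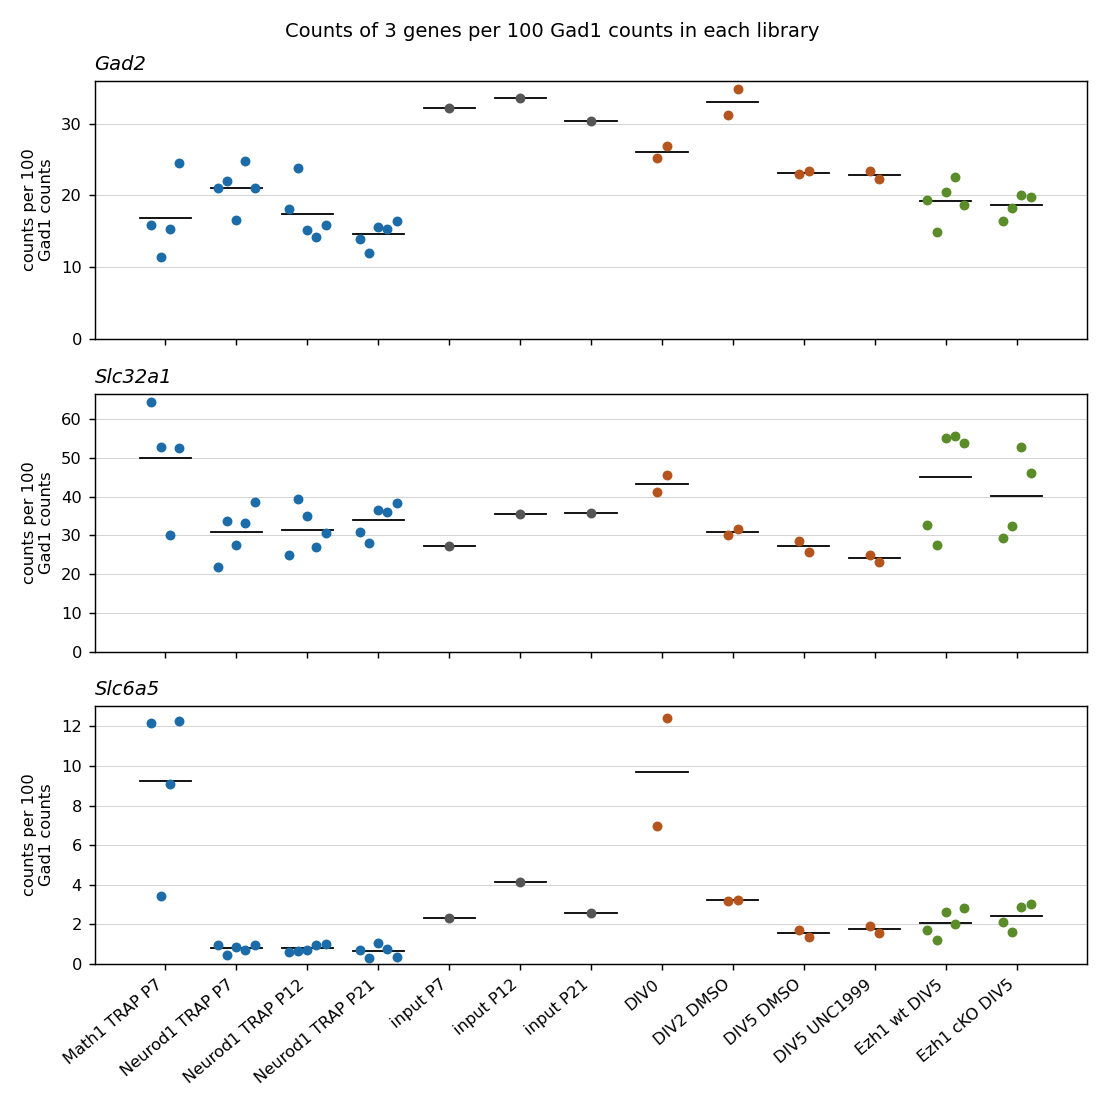
Counts of Gad2, Slc32a1 and Slc6a5 per 100 Gad1 counts (vertical axes, from 0) in each of the 39 libraries by group; points are libraries and lines are group means. Slc6a5 is highest relative to Gad1 in Math1 TRAP and DIV0, with means of 9.24 and 9.69, and lies below 1.1 in every Neurod1 TRAP library.

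Likeness across the 13 group means was measured as Pearson's r of log2(CPM + 0.5) over 13824 genes with at least 1 CPM on average. The 13 points mix kinds of preparation and differ in depth and in the number of libraries behind them, so r is a description and no test was made. Gad1 was most like Rora (0.980), which encodes a nuclear receptor of Purkinje cells and molecular layer interneurons, then Gad2 (0.977), Slc32a1 (0.974), Tmem135 (0.957) and Nlgn1 (0.938). Gad2 was most like Gad1, Rora (0.9746), Apbb2 (0.962), Prrt4 (0.9501) and Slc32a1 (0.9495). Slc32a1 was most like Gad1, Nus1 (0.958), Gad2, Cdk18 (0.946) and Proser2 (0.945).

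Slc6a5 was most like Cttnbp2 (0.979), Thsd7a (0.969), Snhg14 (0.960), the glutamate receptor gene Grm7 (0.956) and Ptar1 (0.943), none of which was among the 5 nearest genes of the other members. Its r was 0.808 with Gad2, 0.769 with Slc32a1 and 0.707 with Gad1, and Slc6a5 had rank 954 of 13823 among the genes most like Gad1. Over all 39 libraries in place of group means, 3 of the 5 nearest genes of Slc32a1 and 2 of those of Slc6a5 were the same.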

How the data were processed

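Poly(A) RNA from 39 libraries was sequenced as 75-bp single-end reads on a NextSeq 500 after NEBNext Ultra II RNA preparation, per the labels' protocols. The authors deposited estimated counts per gene, whole numbers in the table. Salmon 0.8.2 and the build mm10 appear in the submitters' processing notes, which give no role for either. The strand setting of counting is not given in the sources used here. Of 24100 genes 1041 were blank in the Ezh1 libraries and made up 2.94% to 3.66% of counts elsewhere, and no member was among them.

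Groups came from the labels. Each comparison was fitted with edgeR 4.0.16 (R 4.3.3) after a filter on low counts (minimum count 10, minimum total 15) and TMM scaling, with the robust quasi-likelihood test, Benjamini-Hochberg adjustment over all genes tested and a threshold of 0.05. The 19 TRAP libraries were fitted together, as were the 8 of the culture series, the 9 Ezh1 cultures, the 13 libraries behind the difference of effects and the 6 of DIV0 and Math1 TRAP. TRAP against input used 15 TRAP libraries and 3 inputs with age as a term. SEs and 95% intervals come from these fits, and counting intervals are exact. For groups said not to overlap, the share of all genes that separate likewise was not computed. The members and the gene lists were chosen with earlier results of these data known. From each list up to 3 genes per comparison with the smallest adjusted p are named. Some genes that this rule picks are not reported here. Ptf1a, Neurog1, Skor2 and Tfap2b at P12 fall outside that rule and were chosen after their values were seen. Ratios used counts plus 0.5 and exact two-sided permutation tests (scipy 1.17.1), adjusted over 15 tests. The model and the likeness measure were tested on simulated data.

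Alternatives were DESeq2 1.42.0, library size alone, no filter on low counts, a fit of the 2 groups only, a replicate block and leaving out each library. Taking out libraries of 1 set in Math1 TRAP and the Ezh1 cultures, the set as a term, and crossed numbers for DIV2 were added after seeing the data. Same-numbered Ezh1 libraries of both genotypes deviated together (correlations of 0.821 to 0.900 over 4 pairs), which met the rule for treating them as paired. Libraries with other numbers correlated as highly (the best 0.806 to 0.905, above the same number in 2 of 4 pairs), so the correlations show the 2 sets rather than the single numbers.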

Additional observations from a re-analysis of the deposited data

How the results depend on the processing

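Of 195 counts recomputed under other settings 188 stayed within 1.5 times the main count, and of 842 single values 760 kept direction and side of the threshold. The 188 include counts of 0 that stayed 0 for the ratios, for cKO against wt and for the difference of effects. A change between 2 and 3 members called also falls within 1.5 times. The count of members called was 1 from P12 to P21 in a fit of the 2 groups only and 1 from DIV2 to DIV5 with DESeq2. Leaving out 1 library gave 1 to 2 calls from DIV2 to DIV5 and 1 to 3 calls for UNC1999. For the genes nearest to Slc32a1, 3 of 5 were shared over all 39 libraries, and for Slc6a5 2 of 5. With a mean of at least 10 CPM, 3 of 5 were shared for each, the most that this filter allowed. It removed Cdk18 (6.6 CPM) and Proser2 (7.24 CPM) near Slc32a1, and Grm7 (2.87 CPM) and Ptar1 (6.78 CPM) near Slc6a5. The causes of the other changes were not tested.

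Signs that turned all belonged to values that did not pass. With library size alone Gad1 from P12 to P21 was -0.036, and against Math1 libraries 1 and 2 Slc6a5 was 0.1115. For cKO against wt the replicate block gave 0.1446 for Gad1, 0.0815 for Gad2 and 0.0558 for Slc32a1, libraries 1 and 2 alone 0.4331, 0.4867 and 0.4957, and the set as a term 0.1406, 0.1234 and 0.0678. Against the sum of the other members the ratio difference was 0.0145 for Slc6a5 from P7 to P12 and 0.0074 for Gad2 in cKO.

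With 2 libraries a group, a fit that leaves 1 out assumes that the lone library varies like the other groups. Leaving out 1 library gave -0.6779 to 0.0261 for Slc6a5 from DIV0 to DIV2 and -0.247 to 0.0217 for Slc6a5 with UNC1999. For cKO against wt it gave -0.333 to 0.1395 for Gad1, -0.4238 to 0.1093 for Gad2 and -0.2639 to 0.3928 for Slc6a5. For the difference of the UNC1999 and cKO effects it gave -0.4663 to 0.0076 for Gad1, -0.4594 to 0.0755 for Gad2, -0.495 to 0.2161 for Slc32a1 and -0.524 to 0.1359 for Slc6a5. For the ratios it gave -0.0916 to 0.1111 for Slc32a1 and -0.1811 to 0.0596 for Slc6a5 from P7 to P12, and -0.1239 to 0.0257 for Gad2 in cKO.

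With the replicate number as a block the members called were 3 from P7 to P12, 0 from P12 to P21, 2 from P7 to P21, 3 in Neurod1 against Math1, 3 from DIV0 to DIV2, 3 from DIV2 to DIV5, 4 from DIV0 to DIV5, 3 for UNC1999, 0 for cKO, 0 for the difference and 4 for DIV0 against Math1, each as without it. These fits kept only library numbers shared by the groups compared. Neurod1 TRAP P7 library 5 was left out against Math1, and Math1 libraries 3 and 4 against DIV0. Ezh1 wt library 5 was left out for cKO and for the difference, so the samples changed with the block. Outside the Ezh1 cultures same-numbered libraries correlated at -0.395 to 0.259 and share only a number. With the DIV2 numbers crossed (correlation -0.206) 3 members were called from DIV2 to DIV5. No paired analysis was possible for TRAP against input because each age has 1 input library. Depth limits Slc6a5, at 3 to 26 counts per TRAP library.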
